A study of Mus musculus with 9 samples.

Results

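Footprints on the mRNAs of NF-kB were compared in 3 immortalized striatal cell lines. The genes were taken by symbol from the deposited gene counts, and each of the 10 symbols (Nfkb1, Nfkb2, Rel, Rela, Relb, Nfkbia, Nfkbib, Nfkbie, Nfkbiz and Tnfaip3) had 1 row among the 36410 rows of the table. All 10 passed the filter on low counts. The control line (STHdhQ7/Q7) carries knock-in Htt exon 1 of wild-type length, with 7 repeats, the HD-het line (STHdhQ7/Q111) is heterozygous for a knock-in mutant exon 1 with 111 repeats, and the HD-homo line (STHdhQ111/Q111) is homozygous for it. The strain given for each line is C57/BL6, and all cells received cycloheximide, which arrests elongating ribosomes, for 10 min before lysis. Each line was sequenced as 3 libraries of 26 to 32 nt fragments from the 80S monosome fraction. The cells derive from embryos and are immortalized, and each genotype is 1 cell line, so that genotype and line cannot be told apart.

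NF-kB is a family of dimeric transcription factors that drive inflammatory and survival genes. RelA, c-Rel and RelB carry a transactivation domain, while Nfkb1 and Nfkb2 encode the precursors p105 and p100, which are processed to the DNA-binding subunits p50 and p52 and which, unprocessed, hold other subunits in the cytoplasm. The inhibitors IkB-alpha, IkB-beta and IkB-epsilon (Nfkbia, Nfkbib, Nfkbie) retain dimers in the cytoplasm until the IKK kinase complex marks them for degradation. Several inhibitor genes, among them Nfkbia, Nfkbie and Tnfaip3, and the gene of the precursor p100 are themselves NF-kB targets, which closes a feedback loop. In the brain the pathway is best known from glia, and it is also present in neurons and neural precursors.

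A footprint count depends on how much mRNA a cell holds and on how densely ribosomes sit on it, and these bulk values do not separate them. Likewise, fewer cells of a type and less RNA per cell cannot be told apart. Library totals ran from 22504543 to 41888701 counts, and values are given as CPM, counts per 1e+06 counts of a library total scaled by TMM composition factors. The summed level of 10 markers of striatal projection neurons ranged over 9.49 to 18.7 CPM (control), 5.69 to 8.69 CPM (HD-het) and 7.59 to 18.3 CPM (HD-homo), most of it from Ppp1r1b, while the dopamine receptor genes Drd1 and Drd2 were at 0 counts in all 9 libraries. The defining microglial genes Cx3cr1, Tyrobp and C1qa were at 0 in all libraries as well. The summed level of the 10 microglia and macrophage markers ranged over 6.96 to 9.59 CPM (control), 22.6 to 35.5 CPM (HD-het) and 7.19 to 8.51 CPM (HD-homo), and most of it came from Tmem119, with a mean of 5.43, 21.2 and 4.39 CPM. Among 6 neural precursor markers, Vim was abundant in every line, while Nes was at 400 CPM (control), 1086 CPM (HD-het) and 7.01 CPM (HD-homo) and Pax6 at 17.3, 24.8 and 0.0759 CPM. Sox2 was also lowest in HD-homo cells, at 51.2, 33.9 and 2.26 CPM, whereas Fabp7 was highest in HD-het cells, at 1.12, 22.3 and 3.04 CPM, and Msi1 lay at 5.00, 4.81 and 3.19 CPM. The summed level of 6 fibroblast and mesenchyme markers ranged over 6407 to 9167 CPM (control), 25465 to 27759 CPM (HD-het) and 5681 to 7259 CPM (HD-homo). Most of it came from Col1a1 and Acta2 in control and HD-het cells and from Col1a1 in HD-homo cells. Acta2 was at 4100, 8388 and 268 CPM in these lines and Pdgfrb at 45.9, 354 and 56.3 CPM. Like Col1a1 and Col3a1, both were highest in HD-het cells. Of the same list, Col1a2 was at 24.0, 88.9 and 1027 CPM and Pdgfra at 3.81, 6.86 and 155 CPM in these lines, highest in HD-homo cells. The 6 astrocyte markers summed to 2.48 to 4.09 CPM (control), 2.20 to 3.12 CPM (HD-het) and 12.02 to 14.2 CPM (HD-homo), the last mostly from Slc1a3. Slc1a3 lay at 1.67, 0.964 and 11.7 CPM in these lines, whereas Gfap lay at 1.15, 0.996 and 0.950 CPM. Aqp4 was at 0 in all libraries, and Aldh1l1, Slc1a2 and S100b were under 1 CPM in each line. The part of these differences in cell state in the results below was not tested.

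The promoters of these genes are shown first, because the feedback loop runs through kappaB elements, the DNA sites that NF-kB dimers bind. RefSeq start sites of GRCm38.p6 gave windows of 300 bases, 250 before and 50 after the start, for 7 of the 10 genes. Nfkb1, Relb and Nfkbiz had no window. At least 1 match on either strand was present in 5 of the 7 genes, namely Nfkb2, Rel, Nfkbia, Nfkbie and Tnfaip3, and in 1388 of 27025 genes overall (5.14%). No match lay in the windows of Rela and Nfkbib. Capitals mark the bases of a match, and each sequence runs 5′ to 3′ on the strand of the gene.
Nfkbia, chr12:55492648-55492897, minus strand, 250 bases up to the start: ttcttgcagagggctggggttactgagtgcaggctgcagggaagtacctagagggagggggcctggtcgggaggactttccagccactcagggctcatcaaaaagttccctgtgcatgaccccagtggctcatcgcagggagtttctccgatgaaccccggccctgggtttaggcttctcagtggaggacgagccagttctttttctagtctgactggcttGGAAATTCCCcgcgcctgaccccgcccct
Nfkb2, chr19:46304689-46304717, plus strand: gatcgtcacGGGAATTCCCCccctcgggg
Nfkbie, chr17:45555584-45555613, plus strand: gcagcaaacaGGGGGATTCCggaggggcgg
Rel, chr11:23771042-23771070, minus strand: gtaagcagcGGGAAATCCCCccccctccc
Tnfaip3, chr10:19015403-19015432, minus strand: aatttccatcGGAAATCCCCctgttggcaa

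The long stretch belongs to Nfkbia, the gene of IkB-alpha, and the short ones show a match and its flanks in each of the other genes with one. The Nfkb2 site is 1 of 2 matches in the first of its 3 windows, which lies inside the longest annotated Nfkb2 transcript, and the other windows of Nfkb2 held matches as well. Tnfaip3 had a further match farther upstream. In the Nfkbia window the match began 29 bases before the start, in Nfkb2 39, in Nfkbie 106, in Rel 92 and in the Tnfaip3 site shown 12 bases before it. These are matches of letters and not measured binding. Over all tested genes with a window, those with a match were called at the following shares, given as a description with no test. In HD-het against control cells 33.1% of 620 genes with a match were higher and 26.3% lower, against 30.3% and 28.8% of 9175 genes without one. In HD-homo against control cells the shares with a match were 22.1% higher and 25.0% lower, and without one 23.7% and 21.6%. From the HD-het to the HD-homo line 30.0% with a match were higher and 36.9% lower, and without one 34.9% and 31.6%.

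The HD-het line stood lowest for most of the family. Of the 10 genes, 6 were lower in HD-het than in control cells (Nfkb1, Nfkb2, Rela, Nfkbia, Nfkbib and Nfkbie) and none was higher, where 29.1% of all 12678 genes tested were lower, 31.0% higher and 60.1% called in either direction. In HD-homo against control cells 5 were higher (Rel, Relb, Nfkbia, Nfkbie and Nfkbiz) and none lower, where 23.3% of all genes were higher, 22.3% lower and 45.7% called in either direction. Between the mutant lines 9 were higher in HD-homo cells and none lower, with 34.6% of all genes higher, 32.8% lower and 67.5% called in either direction. Each count rests on edgeR's quasi-likelihood test at an adjusted p-value under 0.05 over all genes. With only the 6 libraries compared, 7 genes were lower and 1 was higher in the HD-het line, the added calls being Rel (lower) and Tnfaip3 (higher). The median log2 fold change of the 10 genes was -0.53 for HD-het and 0.32 for HD-homo cells relative to control and 0.89 between the mutant lines, and over all genes tested it was 0.02 in each of these comparisons. The libraries did not overlap for 8 lower and 1 higher of the 10 genes between HD-het and control cells (35.0% and 36.2% of all genes), for 4 higher and no lower genes between HD-homo and control cells (28.3% and 27.2%) and for 9 higher and no lower genes between the mutant lines (35.6% and 33.9%). The comparisons share libraries and are not independent of each other. A difference among the 3 lines was called for 9 genes, all but Tnfaip3, against 78.4% of all genes. Being lower in HD-het than in both other lines held for 6 genes, those that fell against control, and for 21.9% of all genes.

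**Figure D1:**
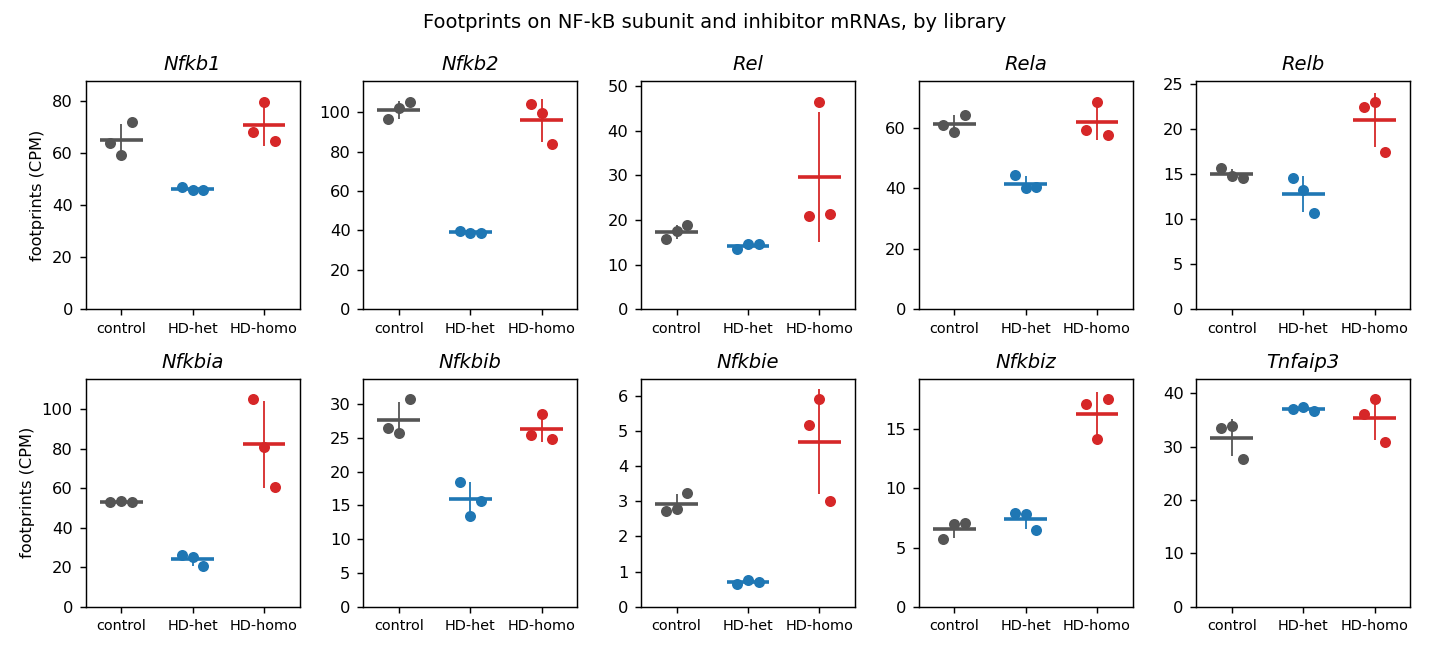
Footprints (CPM on TMM-scaled totals, y axis from 0) of the 10 NF-kB genes in each library of the control, HD-het and HD-homo lines. Points are libraries, horizontal bars line means and vertical bars SD (n = 3). The HD-het libraries of Nfkb1, Nfkb2, Rel, Rela, Relb, Nfkbia, Nfkbib and Nfkbie lie below all libraries of both other lines. Tnfaip3 stays between 27.7 and 38.8 CPM in all 9.

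RelA, the most widely expressed transactivating subunit, had fewer footprints in HD-het cells, and no difference between HD-homo and control cells passed the threshold. Rela (gene identifier 19697, chromosome 19, 5637442 to 5648134) lay at 60.8, 58.5 and 64.3 CPM in the control libraries, 44.4, 39.9 and 40.4 CPM in HD-het and 59.4, 68.6 and 57.8 CPM in HD-homo. Each HD-het library was below each other library. The log2 fold change in HD-het cells was -0.56 (edgeR adjusted p 3.06e-04, SE 0.09), and in HD-homo cells 0.02 (edgeR adjusted p 0.891, SE 0.09).

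The other subunits with a transactivation domain were less abundant, and they rose in HD-homo cells. RelB, which pairs mainly with p100 and p52 in the noncanonical pathway, is encoded by Relb (gene identifier 19698, chromosome 7, 19606217 to 19629438). Its libraries held 15.7, 14.8 and 14.6 CPM (control), 14.5, 13.2 and 10.7 CPM (HD-het) and 22.4, 23.1 and 17.5 CPM (HD-homo). All HD-homo libraries were above all others, and the rise over control was 0.49 on the log2 scale (edgeR adjusted p 0.0118, SE 0.13). In HD-het cells the difference of -0.23 (SE 0.14) did not pass the threshold (edgeR adjusted p 0.169), although the libraries of HD-het and control did not overlap.

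c-Rel, known best from lymphocytes, was also measured in these cells. Rel (gene identifier 19696, chromosome 11, 23736847 to 23770969) lay at 15.7, 17.5 and 18.8 CPM (control), 13.5, 14.7 and 14.6 CPM (HD-het) and 20.9, 46.5 and 21.4 CPM (HD-homo). HD-homo replicate 2 held more than 2 times the level of the other HD-homo libraries, so that the SD was 14.6 CPM around a mean of 29.6 CPM (n = 3). The log2 fold change against control was 0.77 (edgeR adjusted p 0.0289, SE 0.26) with that library and 0.29 without it (edgeR adjusted p 0.0441). The call was lost without control replicate 1 (edgeR adjusted p 0.0984), without control replicate 2 (edgeR adjusted p 0.0683) and with only the 6 libraries compared (edgeR adjusted p 0.0670). Without HD-homo replicate 2 the HD-het difference of -0.28 passed the threshold (edgeR adjusted p 0.0230), and with only the 6 libraries compared it passed as well (edgeR adjusted p 0.0259), which was not so with all 9 (edgeR adjusted p 0.367).

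Of the precursor genes, Nfkb2 changed most. Nfkb2 (gene identifier 18034, chromosome 19, 46300994 to 46312400) encodes p100, the inhibitor of RelB dimers and source of p52, and its first promoter window holds the match printed above. It lay at 96.4, 102 and 105 CPM (control), 39.5, 38.8 and 38.6 CPM (HD-het) and 104, 99.8 and 83.7 CPM (HD-homo). The HD-het values were close together and far below those of both other lines. Nfkb2 fell by 1.38 on the log2 scale in HD-het cells (edgeR adjusted p 5.89e-07, SE 0.09), that is 2.60-fold, and in HD-homo cells stood 2.46-fold above HD-het cells (edgeR adjusted p 3.73e-07). The difference between HD-homo and control cells was -0.08 (edgeR adjusted p 0.501, SE 0.09). The annotated locus overlaps Psd and 4833438C02Rik, and the use of strand in counting was not stated, so reads of these genes could not be told apart where they overlap.

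Nfkb1, the gene of p105 and p50, moved in the same direction by less. Nfkb1 (gene identifier 18033, chromosome 3, 135584655 to 135691969) lay at 63.8, 59.4 and 71.8 CPM (control), 46.8, 45.8 and 45.8 CPM (HD-het) and 68.1, 79.6 and 64.4 CPM (HD-homo). Only the HD-het libraries stood apart from the others. The log2 fold change was -0.49 in HD-het (edgeR adjusted p 0.00135, SE 0.10) and 0.12 in HD-homo cells (edgeR adjusted p 0.340, SE 0.10) against control. Its locus overlaps the predicted gene Gm46827.

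Among the inhibitors, IkB-alpha differed in both mutant lines and in opposite directions. IkB-alpha, resynthesized rapidly after each round of NF-kB activity, is encoded by Nfkbia (gene identifier 18035, chromosome 12, 55489409 to 55492647). The control libraries held 53.2, 53.6 and 53.0 CPM, the HD-het libraries 26.2, 25.4 and 20.4 CPM and the HD-homo libraries 105, 81.2 and 60.9 CPM. The 3 lines did not overlap, the control libraries lay within 1 CPM of each other and the HD-homo libraries spread widely. Nfkbia fell by 1.15 in HD-het cells (edgeR adjusted p 1.54e-04, SE 0.17) and rose by 0.63 in HD-homo cells (edgeR adjusted p 0.00894, SE 0.17). From HD-het to HD-homo cells the rise was 3.43-fold (edgeR adjusted p 4.01e-06).

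IkB-epsilon, an inhibitor known to act later than IkB-alpha, had few footprints and the widest range of the family. Nfkbie (gene identifier 18037, chromosome 17, 45555700 to 45563169) was covered by 71, 117 and 86 counts (control), 17, 28 and 15 counts (HD-het) and 186, 154 and 68 counts (HD-homo). These are 2.71, 2.78 and 3.24 CPM, 0.645, 0.770 and 0.709 CPM, and 5.17, 5.89 and 3.02 CPM. All HD-het libraries were lowest, and HD-homo replicate 3 lay within the control range. The log2 fold change was -2.02 in HD-het cells (edgeR adjusted p 7.45e-05, SE 0.27), 0.70 in HD-homo cells (edgeR adjusted p 0.0224, SE 0.22) and 2.72 between the mutant lines (edgeR adjusted p 4.16e-06, SE 0.26). The HD-homo call was lost when either of the first and second replicates of control (edgeR adjusted p 0.0805 and 0.0744) or of HD-homo cells (edgeR adjusted p 0.0669 and 0.0754) was left out.

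IkB-beta, which is not a classical target of NF-kB, was lower in HD-het cells as well. Nfkbib (gene identifier 18036, chromosome 7, 28758251 to 28766644), whose locus overlaps Ccer2, lay at 26.5, 25.7 and 30.7 CPM (control), 18.5, 13.5 and 15.7 CPM (HD-het) and 25.5, 28.5 and 24.9 CPM (HD-homo). It fell by 0.80 in HD-het cells (edgeR adjusted p 2.45e-04, SE 0.13), while control and HD-homo libraries overlapped, with a log2 fold change of -0.07 (edgeR adjusted p 0.682, SE 0.12). Of the 5 genes with a kappaB match, 3 were lower in HD-het than in control cells (Nfkb2, Nfkbia and Nfkbie) and Rel and Tnfaip3 did not pass the threshold. Rela and Nfkbib, whose windows held no match, were both lower. Over all tested genes with a window, 26.3% of those with a match and 28.8% of those without one were lower. Nfkb1, Relb and Nfkbiz had no window, and a part of kappaB sites in these differences was not tested.

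IkB-zeta, an atypical member of the nucleus that serves as a coactivator of a subset of NF-kB targets such as Il6, followed another pattern. Nfkbiz (gene identifier 80859, chromosome 16, 55811375 to 55838954) lay at 5.69, 6.97 and 7.11 CPM (control), 7.90, 7.81 and 6.48 CPM (HD-het) and 17.2, 14.1 and 17.5 CPM (HD-homo). Control and HD-het libraries overlapped and all HD-homo libraries were higher. The rise in HD-homo cells was 2.46-fold over control, a log2 fold change of 1.30 (edgeR adjusted p 1.37e-05, SE 0.14), and 1.13 over HD-het cells (edgeR adjusted p 2.01e-05, SE 0.13). The difference between HD-het and control cells was 0.17 (edgeR adjusted p 0.312, SE 0.14).

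A20, the ubiquitin-editing enzyme that shuts off signalling upstream of IKK, is encoded by Tnfaip3 (gene identifier 21929, chromosome 10, 19000910 to 19015410). Its libraries held 33.4, 33.9 and 27.7 CPM (control), 37.1, 37.5 and 36.6 CPM (HD-het) and 36.2, 38.8 and 30.9 CPM (HD-homo). The HD-het libraries lay just above the control libraries and within the HD-homo range. No comparison passed the threshold, with log2 fold changes of 0.23 in HD-het (edgeR adjusted p 0.0893, SE 0.11), 0.16 in HD-homo (edgeR adjusted p 0.258, SE 0.11) and -0.07 between the mutant lines (edgeR adjusted p 0.586, SE 0.11). With only the 6 libraries compared, the HD-het difference passed it (edgeR adjusted p 0.0483).

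**Figure D2:**
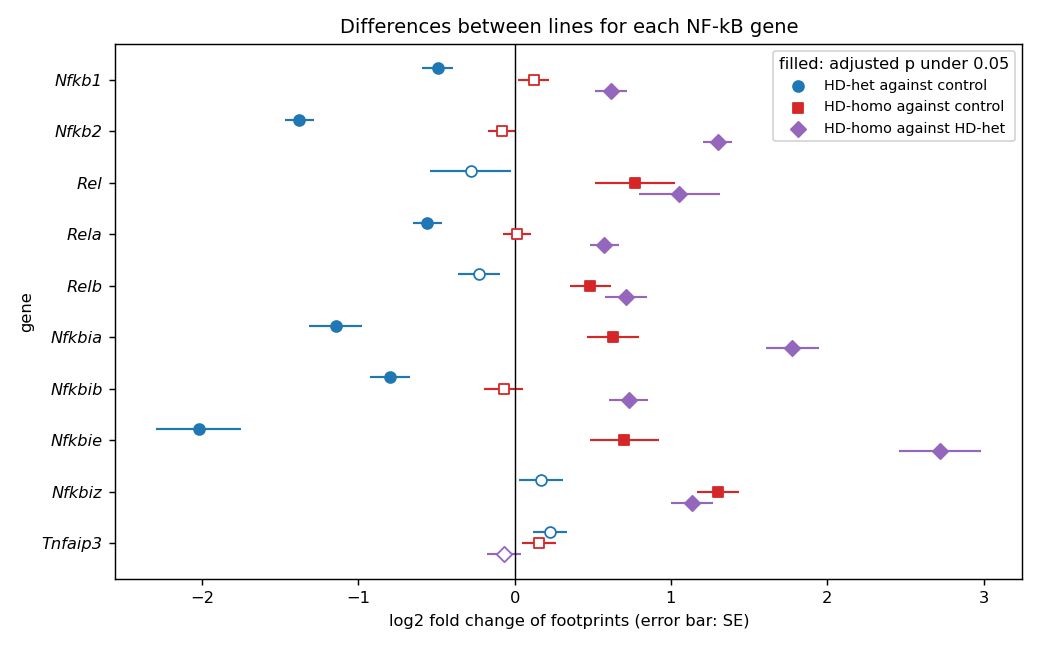
Log2 fold change of footprints (x axis, error bars SE) for each of the 10 genes (y axis) for both mutant lines relative to control and for HD-homo relative to HD-het cells, from the fit of all 9 libraries. Filled symbols have an adjusted p-value under 0.05; the HD-het values reach from -2.02 for Nfkbie to 0.23 for Tnfaip3, and in HD-homo relative to HD-het cells all symbols except that of Tnfaip3 are filled and to the right of 0.

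By the comparisons that passed the threshold 9 of the genes fell into 3 kinds, and Tnfaip3, with no comparison past it, into none. For Nfkb1, Nfkb2, Rela and Nfkbib the HD-het line was lowest, and the difference between control and HD-homo cells did not pass the threshold. For Nfkbia and Nfkbie the order was HD-het, control, HD-homo, with each step past the threshold. For Rel, Relb and Nfkbiz the HD-homo line was highest, and the difference between control and HD-het cells did not pass the threshold. The line means of Rel and Relb were nonetheless in the same order as those of Nfkbia and Nfkbie. No libraries of Rel or Relb overlapped between lines, whereas those of Nfkbie did between control and HD-homo cells. The kinds thus differ in calls and not always in order of levels. Within a line many of these genes lay on the same side of the line mean in single libraries. In HD-homo replicate 2 the level of 9 of the 10 genes was above the mean of the log2 values of the line, and in HD-homo replicate 3 it was below for 9. The same count over all genes was not made, so this is not shown to be particular to these genes.

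Levels of different genes were compared per kilobase of coding sequence. In control cells Nfkbia was highest at 56.5 ± 0.354 CPM per kb (SD, n = 3), followed by Nfkb2 at 37.6 ± 1.68 and Rela at 37.2 ± 1.77 CPM per kb, which do not differ beyond their spread. Nfkbib at 25.6 ± 2.49 and Nfkb1 at 22.3 ± 2.16 CPM per kb came next. The feedback enzyme gene Tnfaip3 was at 13.6 ± 1.47, Rel at 9.83 ± 0.895, Relb at 8.98 ± 0.332, Nfkbiz at 3.02 ± 0.358 and Nfkbie at 2.61 ± 0.255 CPM per kb. In HD-het cells Nfkbia (25.5 ± 3.33 CPM per kb) no longer stood above Rela (25.2 ± 1.498 CPM per kb), and Nfkb2 (14.5 ± 0.175 CPM per kb) lay below Tnfaip3 (15.9 ± 0.190 CPM per kb). In HD-homo cells Nfkbia reached 87.5 ± 23.5 CPM per kb, with Rela at 37.6 ± 3.55 and Nfkb2 at 35.5 ± 3.97 CPM per kb. Nfkbie was lowest in each line.

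Ratios of these levels within a library do not depend on how libraries are scaled. The ratio of Nfkbia to Rela, inhibitor over its main partner, was 1.53, 1.60 and 1.44 (control), 1.03, 1.11 and 0.884 (HD-het) and 3.09, 2.07 and 1.84 (HD-homo). The lines did not overlap, so IkB-alpha footprints were fewer relative to RelA in the HD-het and more in the HD-homo libraries. With Nfkbia, Nfkbib and Nfkbie summed over Rela, Rel and Relb, the ratio was 1.52 ± 0.0175 (control), 0.996 ± 0.0563 (HD-het) and 1.76 ± 0.452 (HD-homo; SD, n = 3), and control and HD-homo libraries overlapped. The ratio of both precursors, Nfkb2 over Nfkb1, was 1.63, 1.86 and 1.59 (control), 0.911, 0.914 and 0.912 (HD-het) and 1.65, 1.35 and 1.40 (HD-homo). The precursor p100 thus had more footprints per coding length than p105 in control and HD-homo libraries and fewer in HD-het libraries. Tnfaip3 over Nfkbia rose from 0.241 ± 0.0249 in control to 0.632 ± 0.0822 in HD-het and was 0.180 ± 0.0353 in HD-homo cells (SD, n = 3), with no overlap between lines. Nfkbiz over Nfkbia was 0.0534 ± 0.00631 (control), 0.133 ± 0.00343 (HD-het) and 0.0899 ± 0.0297 (HD-homo; SD, n = 3). With 3 libraries against 3 the 2-sided exact permutation test cannot give a p-value below 0.100, and it gave that value for each of these ratios in HD-het against control cells, so none could pass 0.05.

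**Figure D3:**
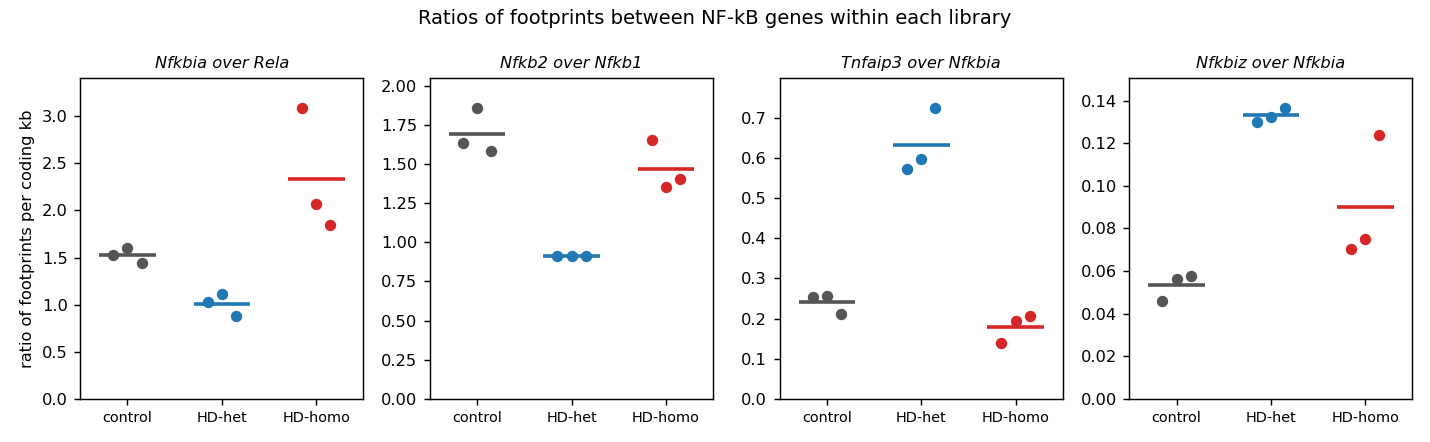
Ratios of footprints per coding kb (y axis from 0) between pairs of NF-kB genes within each library of the control, HD-het and HD-homo lines. Points are libraries and bars line means; Nfkb2 over Nfkb1 is between 0.911 and 0.914 in the HD-het libraries and above 1.35 in all others, and Tnfaip3 over Nfkbia is above 0.573 in HD-het and at most 0.256 in all other libraries.

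The genes most like the 3 with the widest range were sought by the Euclidean distance between pairs of log2 fold changes against control, over the 3 lines and among 8367 genes. Nearest to Nfkb2 were Hmgcs1, an enzyme of sterol synthesis (distance 0.00782), Tomm5, of the mitochondrial import pore (0.0518), and Rps19bp1 (0.0535). Nearest to Nfkbia were Slc7a6os (0.119), the kinesin gene Kif21a (0.133) and Nip7, of ribosome assembly (0.134). Nearest to Nfkbie were the metallothionein gene Mt2 (0.157), the mitochondrial NAD kinase gene Nadk2 (0.273) and the histone gene Hist1h2bb (0.288). Mt2 lay at 136 CPM (control), 31.6 CPM (HD-het) and 202 CPM (HD-homo).

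The rest of the pathway was described with 4 lists of 88 genes, 75 of which were tested. The shares of a list are of its tested genes, and the shares over all genes are those given above for the same comparison. Of 11 receptor genes, 7 were higher and 1 lower in HD-het than in control cells, 6 higher and 3 lower in HD-homo than in control cells, and 5 higher and 4 lower between HD-het and HD-homo cells, taken from the former to the latter. These are 63.6% higher and 9.09% lower in HD-het cells, where all genes gave 31.0% and 29.1%, and 54.5% higher and 27.3% lower in HD-homo cells, where all genes gave 23.3% and 22.3%. From the HD-het to the HD-homo line they are 45.5% and 36.4%, where all genes gave 34.6% and 32.8%. The lymphotoxin beta receptor gene Ltbr, an entry to the noncanonical pathway, had counts of 3, 3 and 1 (control), 205, 256 and 170 (HD-het) and 1286, 663 and 681 (HD-homo). The lines did not overlap, and the control libraries were at the limit of 3 counts that a count of 0 allows. Tnfrsf1b, the gene of TNF receptor 2, was at 0.615 CPM (control), 23.5 CPM (HD-het) and 9.62 CPM (HD-homo), log2 fold changes of 5.23 (edgeR adjusted p 3.43e-08, SE 0.24) and 3.95 (edgeR adjusted p 1.90e-07, SE 0.24). Il1r1, the interleukin 1 receptor, was higher in both, at 33.1 and 32.0 against 8.22 CPM in control. Its coreceptor gene Il1rap was at 30.9 CPM (control), 64.3 CPM (HD-het) and 15.2 CPM (HD-homo), higher in HD-het (log2 fold change 1.06, edgeR adjusted p 3.85e-04) and lower in HD-homo than in control cells (-1.03, edgeR adjusted p 8.41e-04). Tnfrsf11a, the gene of RANK, rose by 3.91 in HD-homo cells (edgeR adjusted p 1.46e-06, SE 0.31), and the RNA receptor gene Tlr3 rose by 1.65 in HD-het cells (edgeR adjusted p 1.90e-04, SE 0.25) and fell by 1.096 in HD-homo cells (edgeR adjusted p 0.0111, SE 0.30). Cd40, under 1 CPM in each line, was lower in both mutant lines.

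Of 27 genes of activators and IKK, 4 were higher and 10 lower in HD-het than in control cells, 9 higher and 0 lower in HD-homo than in control cells, and 14 higher and 2 lower from the HD-het to the HD-homo line. The shares were 14.8% higher and 37.0% lower in HD-het cells (all genes 31.0% and 29.1%) and 33.3% higher and 0% lower in HD-homo cells (all genes 23.3% and 22.3%). Between the mutant lines 51.9% were higher and 7.41% lower in HD-homo cells (all genes 34.6% and 32.8%). Both catalytic IKK subunits, Chuk and Ikbkb, were among those lower in HD-het cells. The regulatory subunit gene Ikbkg was higher in both mutant lines, at 23.6 CPM (HD-het) and 21.6 CPM (HD-homo), with 12.4 CPM in control cells. Map3k14 encodes NIK, the kinase that starts processing of p100. It lay at 15.6, 15.4 and 13.6 CPM (control), 6.19, 4.29 and 6.24 CPM (HD-het) and 13.5, 20.1 and 13.2 CPM (HD-homo). It fell by 1.43 in HD-het cells (edgeR adjusted p 7.32e-05, SE 0.19), and in HD-homo cells the difference of 0.07 did not pass the threshold (edgeR adjusted p 0.785, SE 0.18). The HD-het line was thus lowest for Map3k14 as it was for Nfkb2. Being lower in HD-het than in both other lines was called for 21.9% of all genes, and a link between Map3k14 and Nfkb2 was not tested. Tab1 also fell in HD-het cells, by 0.73 (edgeR adjusted p 1.63e-04, SE 0.11), and Traf5 rose by 0.84 (edgeR adjusted p 0.00152, SE 0.17). In HD-homo cells the adaptor gene Myd88 rose by 0.99 (edgeR adjusted p 4.76e-06, SE 0.09), Irak4 by 0.72 (edgeR adjusted p 9.65e-04, SE 0.13) and Tradd by 0.70 (edgeR adjusted p 3.46e-04, SE 0.11).

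Of 15 further inhibitor genes 13 were tested. In HD-het against control cells 3 were higher and 4 lower, in HD-homo against control cells 7 higher and 1 lower, and between the mutant lines 6 were higher and 2 lower in HD-homo cells. In HD-het cells the shares of 23.1% higher and 30.8% lower were near those of all genes (31.0% and 29.1%), and in HD-homo cells they were 53.8% and 7.69% (all genes 23.3% and 22.3%). Between the mutant lines they were 46.2% and 15.4% (all genes 34.6% and 32.8%). Otulin, the deubiquitinase of linear chains, was at 40.7, 36.1 and 41.4 CPM (control), 20.3, 21.04 and 19.4 CPM (HD-het) and 45.1, 51.5 and 46.9 CPM (HD-homo), a fall of 0.96 in HD-het cells (edgeR adjusted p 6.76e-06, SE 0.09). Cyld, another deubiquitinase, fell by 0.55 (edgeR adjusted p 0.00237, SE 0.12) and Rnf11, a partner of A20, by 0.57 (edgeR adjusted p 0.00633, SE 0.15), whereas Nkiras1 rose by 0.57 (edgeR adjusted p 0.00318, SE 0.13). In HD-homo cells Tnip1, which encodes a partner of A20, rose by 0.73 (edgeR adjusted p 2.58e-04, SE 0.11), Rnf11 by 0.62 (edgeR adjusted p 0.00511, SE 0.15), Nkiras2 by 0.50 (edgeR adjusted p 7.69e-04, SE 0.09) and Nkiras1 by 0.46 (edgeR adjusted p 0.0156, SE 0.13). Tnfaip3 itself did not pass the threshold in either line.

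Of 35 genes known as transcriptional targets, 24 were tested. In HD-het against control cells 11 were higher and 10 lower, in HD-homo against control cells 18 higher and 4 lower, and between the mutant lines 16 were higher and 6 lower in HD-homo cells. The shares were 45.8% higher and 41.7% lower in HD-het cells (all genes 31.0% and 29.1%). In HD-homo cells they were 75.0% higher and 16.7% lower (all genes 23.3% and 22.3%). From the HD-het to the HD-homo line they were 66.7% and 25.0% (all genes 34.6% and 32.8%). The list was chosen with earlier results of these data known, so its shares are a description only. It holds Ccl5 and Cxcl10, which the paper reports as raised in HD cells. Ccl5, with at most 6 counts in any other library, passed the filter on low counts through its HD-homo libraries. Il1b and Tnf, which encode classical cytokine targets, were among the 11 whose counts were too low to test. The chemokine gene Ccl2 lay at 235, 237 and 227 CPM (control), 29.8, 34.9 and 25.2 CPM (HD-het) and 428, 849 and 219 CPM (HD-homo). The HD-het libraries were lowest, and HD-homo replicate 3 lay just below the control libraries. Ccl2 fell by 2.95 in HD-het cells (edgeR adjusted p 5.51e-05, SE 0.38), and its neighbour Ccl7 by 2.74 (edgeR adjusted p 7.67e-05, SE 0.37). Traf1, a signalling adaptor induced by NF-kB, had the same order of lines as Nfkbia, with 2.51 CPM (control), 0.330 CPM (HD-het) and 20.6 CPM (HD-homo). C3, the complement component, lay at 0.475, 0.138 and 13.4 CPM in these lines.

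Some other targets were higher in both mutant lines. Lif, a cytokine gene, rose to 32.6 CPM in HD-het from 3.86 CPM in control cells (edgeR log2 fold change 3.07, adjusted p 9.13e-07, SE 0.22), and Tnfaip2 from 1.12 to 13.0 CPM there and to 62.8 CPM in the HD-homo line. The interferon-responsive chemokine gene Cxcl10 reached 79.4, 167 and 105 CPM in the HD-homo libraries, against 0.535, 0.452 and 0.489 CPM in control. Ccl5 had counts of 1, 0 and 1 (control), 5, 6 and 6 (HD-het) and 1874, 1603 and 1480 (HD-homo). Lif, Tnfaip2, Cxcl10, Ccl5, Birc3 and Ptx3 were highest in HD-homo cells. Ptgs2, Csf1 and Il6 were also higher than control in both mutant lines, but they were highest in HD-het cells. Ptgs2 lay at 725 CPM (control), 2673 CPM (HD-het) and 1166 CPM (HD-homo). In the same order Csf1 lay at 373, 652 and 497 CPM and Il6 at 0.214, 1.59 and 0.726 CPM. For Csf2, Gadd45b and Mmp9 the HD-het difference was not called. The 4 targets lower in HD-homo than in control cells were Vcam1, Sod2, Bcl2l1 and Cx3cl1. Vcam1 lay at 140 CPM (control), 57.1 CPM (HD-het) and 11.1 CPM (HD-homo), lower in both mutant lines. Sod2 and Bcl2l1 were also lower in both, whereas Cx3cl1, at 80.8, 416 and 40.1 CPM, was higher in HD-het cells.

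**Figure D4:**
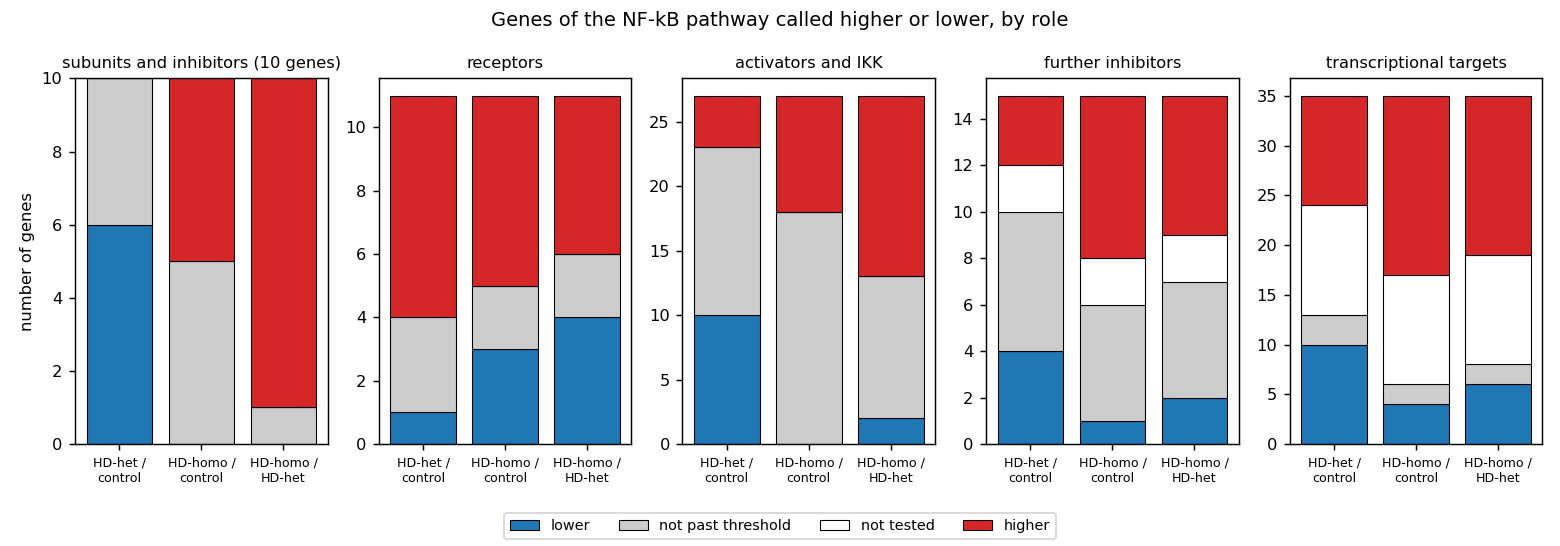
Number of genes (y axis) called higher or lower, not past the threshold of adjusted p 0.05 or not tested in each of the 3 comparisons, for the 10 subunit and inhibitor genes and the 4 lists of other pathway genes. In HD-het against control cells 6 of the 10 genes are lower and none higher (29.1% and 31.0% of all genes tested). In HD-homo against control cells 18 of the 24 targets tested are higher and 4 lower (23.3% and 22.3% of all genes tested). Genes and lists were chosen with earlier results of these data known.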

How the data were processed

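The deposited table holds whole-number, unnormalized footprint counts, a row for every symbol and a column for every library. The submitters' processing notes name cutadapt, Bowtie 1.0.1 and build mm10. The counting program, annotation and use of strand were not given in the sources used here. The 3 libraries of a line come from independent rounds of culture of 1 line, so p-values measure the spread between such rounds.

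The deposited counts went into edgeR 4.0.16 (R 4.3.3; glmQLFit and glmQLFTest) with all 9 libraries in 1 fit, with TMM factors, filterByExpr by line and line means as the only terms. P-values were adjusted by Benjamini-Hochberg over the 12678 genes tested, with a threshold of 0.05. The study states no count test for these libraries. SE is that of the log2 fold change. Coding lengths are those of the longest coding transcript in GENCODE M21, and loci and promoters came from RefSeq (GRCm38.p6). Promoters were searched on both strands for the degenerate kappaB consensus, and overlapping matches were merged.

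Members and lists were chosen with earlier results of these data known. From each list, up to 4 genes per comparison were eligible to be named, with the largest change past the threshold, at least 5 CPM in the higher line and no overlap; other listed genes were named after their values were seen. The 3 nearest genes were sought among tested genes of at least 10 CPM in the highest line.

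Alternatives were DESeq2 1.42.0, RLE factors, total counts, all genes unfiltered, a minimum of 10 counts per library, fits of the 6 relevant libraries, a block for replicate number, a threshold of 0.01, a 2-fold change, each library left out and, added after the data were seen, offsets for GC content and transcript length (loess span 0.5, values for 96.9% of the genes). The tests were checked on simulated counts with changes in the HD-het line only and in far fewer genes than were called here. That check does not cover scaling or error rates where most genes differ.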

Additional observations from a re-analysis of the deposited data

How the results depend on the processing

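The counts of NF-kB genes called depended little on normalization, filter or tool. The 6 genes called in HD-het against control cells were 3 with a 2-fold minimum, 6 to 7 when each library was left out and 8 (7 lower, 1 higher) with only the 6 libraries compared. The 5 called in HD-homo against control cells were 2 at an adjusted p under 0.01, 1 with a 2-fold minimum and 3 to 5 when each library was left out, the lowest without control replicate 1 and without control replicate 2. The 9 called between the mutant lines were 5 with a 2-fold minimum and 9 in each fit without 1 library. Of the 75 other pathway genes tested, 50 were called in HD-het against control, 48 in HD-homo against control and 55 between the mutant lines. Over all genes tested 60.1%, 45.7% and 67.5% were called in these comparisons. With a 2-fold minimum the calls of other pathway genes fell to 26, 25 and 31. The share of all genes called with a 2-fold minimum is not given here, so no count with that minimum can be set against it. Of the 510 values of single genes under alternatives, 490 kept direction and side of the threshold, 7 lost and 3 gained the call, and 10 changed sign, all of them in differences near 0 that were not called. Those were Nfkb2 in HD-homo against control cells (0.0352 with GC and length offsets, and -0.143 to 0.00959 when each library was left out, positive without HD-homo replicate 3), Rela there (-0.00278 without a filter, and -0.0604 to 0.0655 when each library was left out, negative without replicate 1 or 2 of control or replicate 2 of HD-homo), Nfkbib there (-0.129 to 0.0106, positive without control replicate 3) and Tnfaip3 between the mutant lines (0.0109 with total counts, 0.0915 with GC and length offsets, and -0.137 to 0.0194, positive without HD-homo replicate 3). The cause was not tested.

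Libraries of the same number did not deviate together across genes, with correlations of deviations from -0.356 to 0.175, and 3 of 9 libraries correlated best with a library of their own number, so the numbers were not taken as pairs. With the replicate number as a block, 6, 5 and 9 of the 10 genes were called in the 3 comparisons. Nfkbie in HD-het cells rested on counts of 15 to 28, where counting error alone is wide. Each line is 1 cell line, which limits what 3 libraries can show about a genotype.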
